A study of Homo sapiens with 12 samples.

Results

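The clustered replication-dependent histone genes encode the linker histone H1 and the core histones H2A, H2B, H3 and H4 that package newly copied DNA. Members were the protein-coding genes whose symbol follows the systematic names of this family (H1-1 to H1-6, H2AC, H2BC, H3C and H4C with a number). The rule used names only and no measured value. It found 63 of the 48283 features listed in either count table, namely 6 H1, 14 H2A, 16 H2B, 13 H3 and 14 H4 genes. Of these, 52 lay on chromosome 6 and 11 on chromosome 1. MP38 had 62 members in its count table, 92.1 had 61, and 60 were in both.

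Replication-dependent histone mRNAs are made mainly in S phase, from genes that NPAT and its partners transcribe. Unlike other mRNAs they normally end in a stem-loop that SLBP binds, cut with the help of the U7 small nuclear RNP, and carry no poly(A) tail. Some of these genes also yield mRNAs that read through the stem-loop and end at an ordinary poly(A) signal, a form known from differentiated and non-dividing cells. Poly(A) selection enriches for this second form, so the values below do not measure the stem-loop form as such.

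Comparisons were made in the established uveal melanoma lines MP38 and 92.1, each exposed for 72 hours to the solvent DMSO or to VE-822. This compound inhibits ATR, the kinase that signals stalled replication forks. There were 3 poly(A)-selected libraries per line and treatment, 12 in all. The labels give no dose, only that it was set to leave about 40% viability, so line and dose cannot be told apart. Separate cultures are not stated for the 3 libraries of a group, so a p-value covers just the spread among those libraries, which may be technical. In bulk RNA a lower count of cells that make a transcript and less transcript per cell cannot be told apart.

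Library totals ran from 54415628 to 63638976 counts for MP38 and from 112374503 to 137664800 for 92.1. In 92.1, DMSO library 3 stood apart: without it edgeR called 6377 genes higher and 6899 lower, against 4658 and 4498 with it. It was the highest DMSO library for 16 of the 28 members tested in that line. The 8 melanocyte lineage markers summed to 4775 to 5981 CPM (counts divided by the scaled size of their library) per library in MP38 and 20000 to 21470 in 92.1. The 11 markers of other cell types summed, in MP38, to between 2.74 and 3.63 CPM under DMSO and between 5.04 and 5.73 CPM under VE-822. In 92.1 these sums were 3.51 to 4.46 and 6.32 to 7.17 CPM, and 4 of the markers were called higher in either line, with KRT5 and RPE65 at 0 counts in the DMSO libraries of 92.1. Their part in the results was not tested.

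The sequences that tell the forms apart are the stem-loop and the poly(A) signal. The stem-loop was searched on the transcript strand as GGC, any base, CTTTT, any base, AG, any base, GCC, and was present in 38 of 83129 protein-coding transcripts of GENCODE 29 (0.0457%). Of 61 members matched there, 27 had it in at least 1 transcript and 20 had a transcript with AATAAA in its last 40 bases and, where there was a stem-loop, downstream of it. Both features were found for 18 members, though in H2BC15 and H2BC18 on different transcripts. In H2AC18, H2AC19 and H2BC5, AATAAA began 13, 13 and 12 bases after a stem-loop. Neither feature was found for 32 members, of which 29 had models that hold coding bases only. Shown are the stem-loops (capitals) of members that carry most of their class in 92.1, or moved most there, on GRCh38:
H2BC21 stem-loop, chr1:149886183-149886208, minus strand: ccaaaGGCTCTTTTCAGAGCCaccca
H2AC6 stem-loop, chr6:26124664-26124689, plus strand: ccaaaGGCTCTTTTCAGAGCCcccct
H4C8 stem-loop, chr6:26285126-26285151, minus strand: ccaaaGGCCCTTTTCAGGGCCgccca
H2BC5 stem-loop, chr6:26158582-26158607, plus strand: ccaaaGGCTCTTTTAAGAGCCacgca

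In the transcripts listed next the poly(A) signal (capitals) lies far downstream of the stem-loop, at the last bases of the model. Distances from stem-loop to signal were counted along the spliced transcript. They were 1705 bases in H2BC21, 1099 bases in H2AC6 and 605 bases in the H4C8 transcript shown. The H2BC21 model has 1 exon. Those of H2AC6 and H4C8 have 2 exons, so the distance between their printed positions on the genome is longer. For H3C6 the listed transcript had no stem-loop match. These 30-base ends are those of polyadenylated gene models:
H2BC21 end, chr1:149884459-149884488, minus strand: gttattAATAAAgttaccaattaatttaaa
H2AC6 end, chr6:26139073-26139102, plus strand: agcctggcatgaggtAATAAAaggtaatgc
H4C8 end, chr6:26281055-26281084, minus strand: aggtgAATAAAatcaggtcactcttctgct
H3C6 end, chr6:26227444-26227473, plus strand: agatgtaaAATAAAagattactgaacagaa

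Many H2A and H2B genes stand head to head and share the stretch between them. There were 9 such pairs less than 500 bases apart. Shown are the shared stretches of the pair with the widest split in 92.1 and of a pair whose genes were both called higher in both lines (RefSeq, GRCh38.p14), with the octamer ATTTGCAT bound by OCT1, CCAAT and TATAAA in capitals on either strand:
H2BC21 and H2AC20, chr1:149886683-149886917, plus strand: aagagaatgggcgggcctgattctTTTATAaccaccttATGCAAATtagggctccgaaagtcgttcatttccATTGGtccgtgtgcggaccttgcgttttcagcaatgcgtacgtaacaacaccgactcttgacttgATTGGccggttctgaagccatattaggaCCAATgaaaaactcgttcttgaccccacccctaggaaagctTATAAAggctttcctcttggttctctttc
H2BC4 and H2AC6, chr6:26123927-26124144, plus strand: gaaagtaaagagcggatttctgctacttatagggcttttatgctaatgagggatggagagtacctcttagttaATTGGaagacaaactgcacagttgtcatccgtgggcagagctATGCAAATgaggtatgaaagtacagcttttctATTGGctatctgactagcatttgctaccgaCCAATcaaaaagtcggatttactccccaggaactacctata

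Each stretch held 1 octamer and 3 CCAAT boxes, and the H2BC21 stretch also held 2 TATAAA matches. The stretch of H2BC4 and H2AC6 held none as printed, cut at the gene starts. The 300-base promoters of both genes, which run past that cut, do hold a TATAAA match. In promoters of 300 bases, from 250 before to 50 after the start, the octamer was found in 24 of the 58 members matched and in 1.77% of all 35116 promoters. It was found for 13 of 16 H2B and 10 of 13 H2A genes, and for 0 of 6 H1 and 0 of 12 H4 genes. The 1 match among 11 H3 genes, H3C4, came from an alternative start whose window is that of the H2AC7 promoter (chr6:26199244-26199543), and the other H3C4 window held none. CCAAT was found in 49 of 58 members against 34.6% of all promoters, and TATAAA in 40 of 58 against 11.5%. The motifs do not overlap in letters, and a match is a description of the sequence, not a bound site.

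In 92.1 most measurable members were higher in VE-822. Of 61 listed members, 28 passed the filter on low counts and 33 did not. Of the 28, 23 were higher, 2 were lower and 3 did not pass the test (edgeR, adjusted p under 0.05). Over all 22943 genes tested in this line, 20.3% were called higher and 19.6% lower. The median log2 fold change was 2.28 over these 28 and 0.03 over all genes tested. A member can pass the filter through VE-822 alone. Among the 21 members at filter level in all 3 DMSO libraries, 18 were higher, 2 lower and 1 not called. VE-822 lay above DMSO in all libraries for 24 members, below for 2 and overlapped for 2, where 27.8% and 25.1% of all genes lay wholly above and below.

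Summed over members, 92.1 went from 27.2, 28.2 and 36.1 CPM in DMSO to 162, 160 and 192 CPM in VE-822. The ratio of means was 5.61, or 6.18 without DMSO library 3. All VE-822 sums lay above all DMSO sums. By class the ratio was 8.24 for H2A, 5.57 for H2B, 5.29 for H3, 4.70 for H4 and 4.57 for H1. Few members gave most counts: the 12 with a mean of at least 1 CPM held 87.0% of member counts in DMSO and 94.2% in VE-822. All 12 were called higher, where 20.3% of all genes tested were. VE-822 levels enter that mean, taken over both treatments, and so help choose the set. H2BC4, at 0.370 CPM on average in DMSO, is in it. H4C3, at 0.930 CPM in DMSO and called lower, is not.

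**Figure D1:**
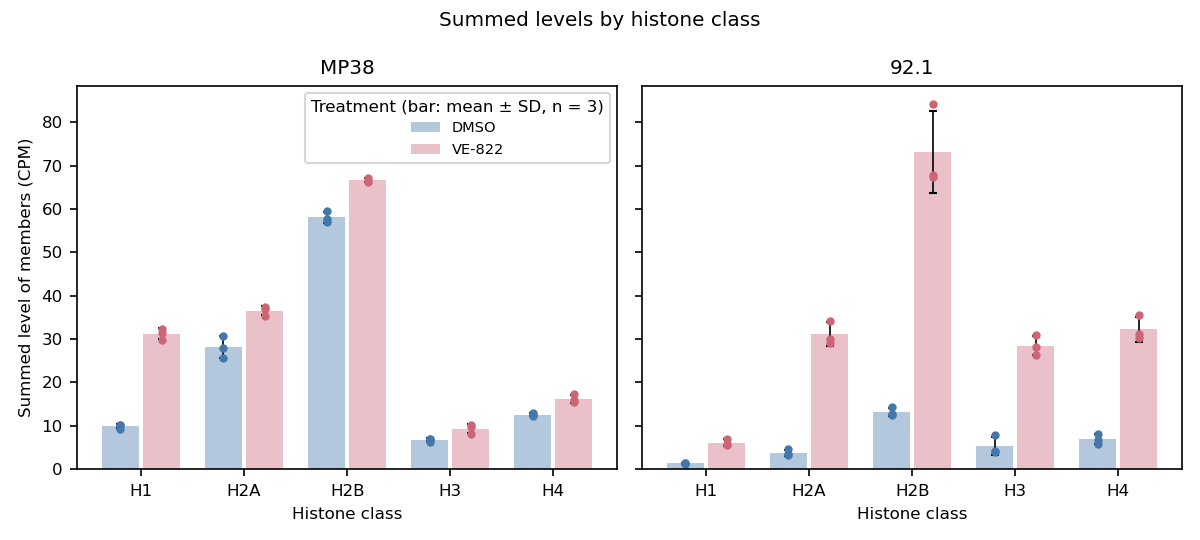
Summed CPM of the members of each histone class in DMSO and VE-822, in MP38 and 92.1 (bars are means, error bars SD, points the 3 libraries). In 92.1 every class rises, H2B to 73.2 ± 9.54 CPM, while in MP38 H1 shows the largest ratio (3.16).

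The linker histone H1 binds DNA at the nucleosome's entry and exit. In 92.1 H1-2, which took most H1 counts, had 1.16, 0.980 and 1.10 CPM in DMSO and 4.93, 5.15 and 6.11 CPM in VE-822. The groups did not overlap, and the log2 fold change was 2.32 ± 0.124 (SE; edgeR adjusted p = 2.81e-06). H1-4 rose by 1.02 ± 0.218 and H1-3, at under 0.3 CPM in every library, by 3.72 ± 0.733. The H1-3 value rests on DMSO counts of 4, 0 and 1, and was 5.27 without DMSO replicate 1 and 3.15 without DMSO replicate 2. H1-2 made up 80.8% of H1 counts in DMSO and 88.4% in VE-822.

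Among the H2A genes, H2AC6 took most counts. Its levels were 1.64, 1.75 and 2.39 CPM in DMSO against 26.2, 25.7 and 30.1 CPM in VE-822. The groups lay far apart, with a log2 fold change of 3.82 ± 0.142 (14.2-fold; adjusted p = 6.78e-07). It held 51.1% of H2A counts in DMSO and 87.9% in VE-822; these shares of counts are not corrected for gene length. H2AC11 went from 0.502, 0.417 and 0.848 to 1.67, 1.57 and 1.64 CPM, a log2 fold change of 1.46 ± 0.235. H2AC13 rose by 1.90 ± 0.194, and H2AC12, at most 0.165 CPM, had 0.85 ± 0.306 (adjusted p = 0.0554).

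H2AC20 went the other way in 92.1. Its levels were 0.667, 0.681 and 0.698 CPM in DMSO and 0.245, 0.230 and 0.313 CPM in VE-822. Every VE-822 library lay below every DMSO library, a log2 fold change of -1.38 ± 0.194 (adjusted p = 0.000676). The other member called lower was the H4 gene H4C3, with 0.822, 0.988 and 0.981 CPM in DMSO and 0.324, 0.431 and 0.330 CPM in VE-822. Its groups did not overlap either, and its log2 fold change was -1.36 ± 0.186 (adjusted p = 0.000602).

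H2B had the largest sum of counts. H2BC12 had 7.04, 7.04 and 6.64 CPM in DMSO and 35.2, 34.4 and 44.5 CPM in VE-822, with no overlap. It rose by 2.46 ± 0.106 (adjusted p = 1.12e-06) and held close to the same share of H2B counts in both treatments, 52.5% and 51.9%. H2BC21 went from 0.776, 0.767 and 1.07 CPM to 9.10, 9.58 and 11.8 CPM, a log2 fold change of 3.54 ± 0.160. H2BC5 went from 0.703, 1.03 and 1.15 CPM to 9.40, 9.84 and 12.1 CPM, a log2 fold change of 3.44 ± 0.178. H2BC15, whose model is the longest of these, went from 2.62, 2.77 and 3.96 CPM to 7.88, 8.23 and 9.45 CPM. None of these 3 overlapped between groups. H2BC18 had a log2 fold change of 4.05 ± 0.254, from 0.0365, 0.0596 and 0.0582 CPM to 0.771, 0.934 and 0.923 CPM. With 4, 7 and 7 counts in DMSO it passed the filter through VE-822. Among the 21 members at filter level in DMSO, H2AC6 had the largest value. The spans of 12 members overlap another listed feature: H2BC18 overlaps FCGR1A, H2BC5 overlaps LARP1P1, H2BC6 overlaps RP1-221C16.8 as H2BC5 does, and H4C14 overlaps H3C14. Whether counting used strand is not given in the sources used here, so these values may hold reads of the other feature. H2BC13 stayed between 0.144 and 0.281 CPM and was not called.

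H3 and H4 form the tetramer at the core of the nucleosome. H3C6 held most of the H3 counts, with 3.35, 3.18 and 6.20 CPM in DMSO and 23.0, 21.6 and 24.9 CPM in VE-822. DMSO library 3 lay above the other DMSO libraries and below all VE-822 libraries. H3C6 rose by 2.45 ± 0.230, or 2.80 without that library. H3C10 went from 0.713, 0.707 and 1.43 CPM to 4.66, 4.35 and 5.29 CPM, a log2 fold change of 2.32 ± 0.249, or 2.71 without that library. H3C2, with 0.0360 to 0.144 CPM in the 6 libraries, overlapped between groups and was not called.

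Among the H4 genes, H4C8 and H4C9 took most counts. H4C8 went from 1.53, 1.61 and 2.68 CPM to 16.2, 17.0 and 19.1 CPM (log2 fold change 3.16 ± 0.197). H4C9 went from 3.09, 3.64 and 4.02 CPM to 12.7, 11.2 and 13.9 CPM (1.81 ± 0.118). All VE-822 libraries lay above all DMSO libraries for both. H4C12 rose by 3.27 ± 0.606 from 0, 0.0170 and 0.0416 CPM, a gene at the edge of detection, and by 4.34 without DMSO replicate 3.

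**Figure D2:**
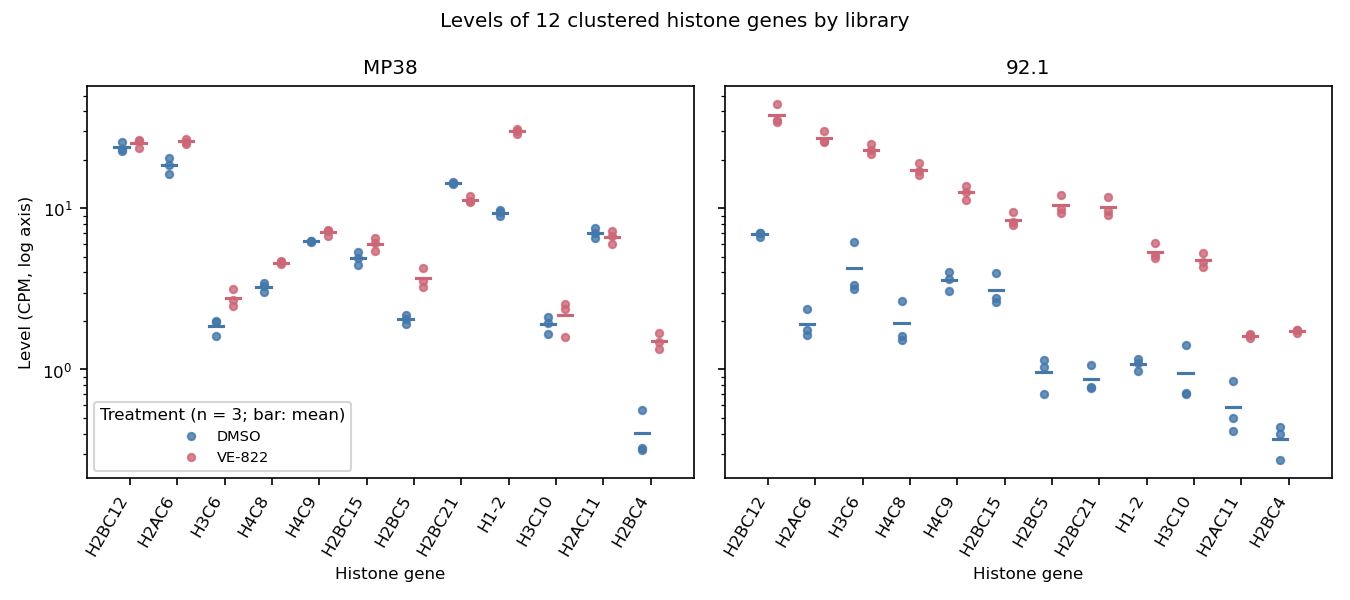
CPM of the 12 members with a mean of at least 1 CPM over both treatments of 92.1, in both lines. The axis is logarithmic, points are libraries and bars means of 3. In 92.1 all 12 lie higher in VE-822 than in DMSO; in MP38 H1-2 and H2BC4 part most, and H2BC21 is lower in VE-822.

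Levels between genes can be set side by side per length, in the deposited FPKM values, which scale a count for gene length and library total. In 92.1 treated with VE-822, H2BC12 was highest at 78.8 ± 12.9 FPKM (SD, n = 3). H2AC6 followed at 16.8 ± 1.74 and H2BC5 at 12.3 ± 1.93 FPKM. H4C9 (9.96 ± 1.15), H3C6 (8.86 ± 0.737), H4C8 (8.25 ± 0.859) and H1-2 (7.57 ± 1.00) came next, and neighbours among these 4 did not differ beyond their SDs. In DMSO the order was H2BC12 at 13.6 ± 0.497, H4C9 at 2.701 ± 0.353 and H4C3 at 2.24 ± 0.229 FPKM. H4C3 was thus among the 3 highest in DMSO and stood at 0.915 ± 0.152 FPKM in VE-822.

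In MP38 the members' sum moved less than in 92.1, and H1 had the largest ratio of the classes. Of 62 listed members, 37 were tested and 25 were below the filter. Of the 37, 22 were higher, 1 was lower and 14 did not pass the test (edgeR), against 26.9% higher and 25.4% lower over all 21415 genes tested. The median log2 fold change was 0.57 over these 37 and -0.01 over all genes tested. Of the 29 members at filter level in all 3 DMSO libraries, 15 were higher, 1 lower and 13 not called. VE-822 lay wholly above DMSO for 22 of the 37 and below for 2, where 29.7% and 29% of all genes did. Summed over members, the line went from 118, 114 and 114 CPM to 160, 163 and 158 CPM, a ratio of means of 1.39.

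H1-2 changed with the smallest p of any member in MP38. It had 9.71, 8.97 and 9.52 CPM in DMSO and 28.8, 31.0 and 30.3 CPM in VE-822, with no overlap. The log2 fold change was 1.68 ± 0.0554 (adjusted p = 2.04e-15), and H1-2 made up 95.15% of H1 counts in DMSO and 96.3% in VE-822. All 4 H1 genes tested were higher, against 26.9% of all genes: H1-4 rose by 1.73 ± 0.402, H1-5 by 1.20 ± 0.400 and H1-3 by 1.11 ± 0.396. Each of these rose from under 0.21 CPM in DMSO and was not at filter level in all 3 DMSO libraries. The calls of H1-3 and H1-5 are lost under 6 and 3 of the 14 other settings.

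For the core histones of MP38, 3 of 7 H2A, 8 of 13 H2B, 2 of 5 H3 and 5 of 8 H4 genes tested were higher. Over all genes tested 26.9% were, and these classes hold few genes. H2BC7, H2BC13, H2BC17 and H4C6, counted as higher, were not at filter level in all 3 DMSO libraries. H2AC6 went from 20.5, 18.6 and 16.4 CPM to 27.1, 25.8 and 25.2 CPM, a log2 fold change of 0.49 ± 0.0641 (adjusted p = 1.63e-06). H2BC11 went from 2.13, 2.35 and 2.02 CPM to 4.92, 6.11 and 5.37 CPM (1.34 ± 0.113, adjusted p = 3.87e-09). Both had VE-822 above DMSO in every library. H2BC4 had the largest log2 fold change of the line, 1.90 ± 0.234, from 0.316, 0.563 and 0.327 CPM to 1.34, 1.48 and 1.68 CPM. H4C6 rose by 1.80 ± 0.440 from under 0.1 CPM and H3C8 by 1.01 ± 0.162.

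H2BC12 had the highest level per length in MP38, 48.9 ± 3.29 FPKM in DMSO and 50.75 ± 2.78 FPKM in VE-822 (SD, n = 3), ahead of H1-2 with 40.53 FPKM in VE-822. In CPM it had 23.3, 22.7 and 25.8 CPM in DMSO and 26.2, 23.7 and 26.7 CPM in VE-822. Its groups overlapped, and its log2 fold change of 0.09 ± 0.0576 was not called (adjusted p = 0.198), though it was called without DMSO replicate 3. H2BC18 likewise overlapped, at 5.89, 6.12 and 6.58 CPM against 6.45, 6.54 and 5.79 CPM. H2AC11 had 7.53, 6.55 and 7.08 CPM against 6.70, 7.20 and 6.04 CPM, a log2 fold change of -0.08 ± 0.0852. H2BC21 was the member called lower: 14.4, 14.2 and 14.5 CPM in DMSO and 11.1, 11.01 and 11.9 CPM in VE-822. Its groups did not overlap, with a log2 fold change of -0.34 ± 0.0595 (adjusted p = 5.85e-05).

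H4C9, H2BC15 and H4C3 were called higher in MP38 but rest on the settings. H4C9 (0.19 ± 0.0771) loses its call under 12 of 15 other settings and H2BC15 (0.29 ± 0.0964) under 5. H4C3 had 0.458, 0.370 and 0.653 CPM in DMSO and 0.808, 0.692 and 1.02 CPM in VE-822. Its log2 fold change of 0.76 ± 0.260 (adjusted p = 0.0185) is not called without DMSO replicate 1, DMSO replicate 2 or VE-822 replicate 3.

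The lines were then compared by the difference of their responses, 92.1 minus MP38, in a joint edgeR fit. Of 41 members tested, 23 had a higher response in 92.1, 2 had a lower one and 16 did not pass the test. Over all 24958 genes in that fit, 22.1% were called higher in 92.1 and 18.8% lower. The median difference was 1.41 over these members and 0.11 over all genes. A member can pass the filter of this fit through a group where it is high. Of those with a higher response in 92.1, H1-3, H2AC12, H2BC18, H3C12, H3C13, H4C12 and H4C14 were not at filter level in all 3 DMSO libraries of 92.1. The counts and the median were not repeated without them. H1-2, H2AC6, H2BC5, H2BC11, H4C5 and H4C8 were among the members called higher in both lines. So were H1-3, H2BC15 and H4C9, whose MP38 calls are lost under 6, 5 and 12 other settings. Over all genes tested, 26.9% were called higher in MP38 and 20.3% in 92.1, and the share called in both was not counted.

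The largest differences were those of H2BC18 (4.06 ± 0.242, log2 scale), H2BC21 (3.91 ± 0.161) and H2AC6 (3.36 ± 0.157). In DMSO these genes had 6.20, 14.4 and 18.5 CPM on average in MP38, and 0.0515, 0.872 and 1.93 CPM in 92.1. In VE-822 H2BC21 had 11.3 CPM in MP38 and 10.2 CPM in 92.1, and H2AC6 26.0 and 27.3 CPM. The lines were normalized in separate tables, so levels across lines are set side by side with no test. H1-2 differed less, by 0.67 ± 0.127 (adjusted p = 0.000486).

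The members lower in 92.1 than in MP38 were H2AC20, by -2.79 ± 0.348 (adjusted p = 9.62e-06), and H4C3, by -2.09 ± 0.323 (adjusted p = 8.03e-05). Both were called higher in MP38 and lower in 92.1. H2AC20 in MP38 had 0.221, 0.177 and 0.280 CPM in DMSO and 0.459, 0.758 and 0.618 CPM in VE-822, with no overlap. H2BC21 showed the opposite, lower in MP38 and higher in 92.1.

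**Figure D3:**
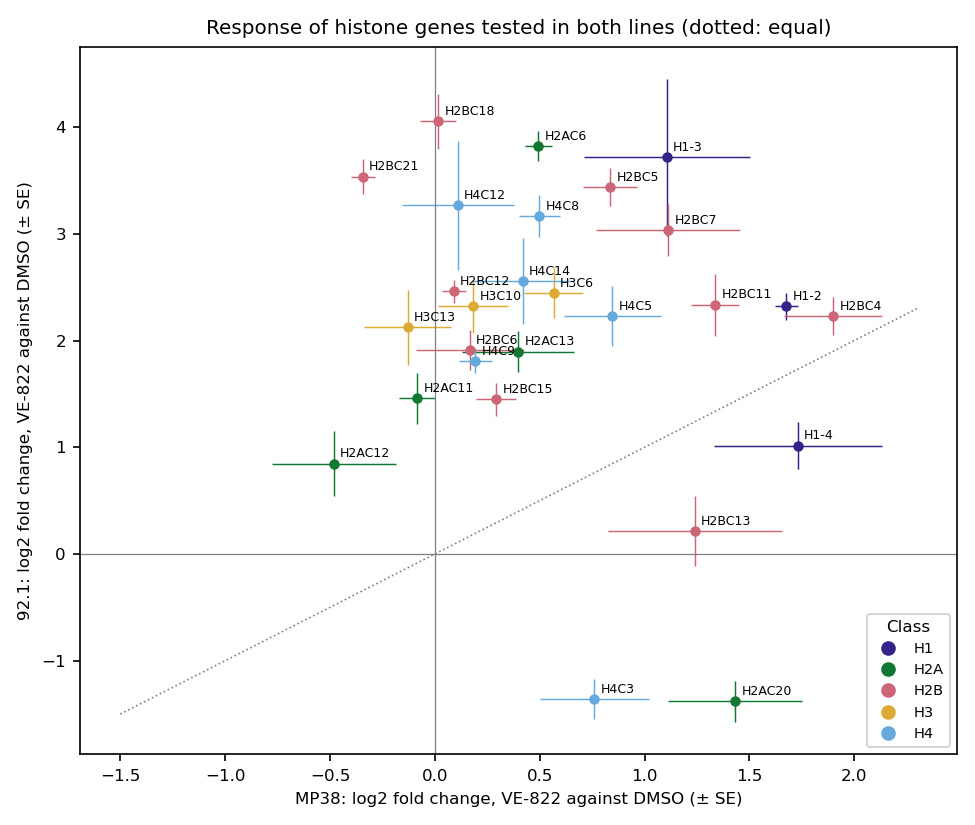
Log2 fold change of VE-822 against DMSO in MP38 (x) and 92.1 (y) for members tested in both lines, with SE bars, coloured by class; the dotted line marks equal responses. Most members lie above the line; H4C3 and H2AC20 lie below 0 in 92.1, and H2BC21 lies left of 0 in MP38.

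H2AC20 and H2BC21 are 1 of the head-to-head pairs, whose shared 235-base stretch is printed above (H2BC21, chr1:149884459-149886652; H2AC20, chr1:149886918-149887411). H2BC21 gave 53.8, 52.9 and 60.6% of the pair's counts in the DMSO libraries of 92.1. In VE-822 it gave 97.4, 97.7 and 97.4%. In MP38 the share was 98.5, 98.8 and 98.1% in DMSO and 96.0, 93.6 and 95.1% in VE-822. The shares did not overlap between treatments in either line, and moved up in 92.1 and down in MP38. The pair is shown for the size of its split. An exact permutation test of the log2 ratio of H2BC21 to H2AC20 counts gave p = 0.1 in each line. With 3 libraries per group that test can give no lower value, so it cannot pass 0.05, and the shares are a description.

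H2AC6 and H2BC4 share the other printed stretch, and both rose in both lines. In 92.1 the log2 fold changes were 3.82 and 2.23, in MP38 0.49 and 1.90. H2BC4 gave 21.05, 13.5 and 14.33% of this pair's counts in DMSO and 6.28, 6.42 and 5.33% in VE-822 in 92.1. In MP38 it gave 1.52, 2.93 and 1.96% and then 4.72, 5.43 and 6.23%. Its share thus moved opposite ways in the lines as well, with no overlap in either. H2BC11, the partner of H2AC11, gave 17.9, 30 and 20.9% in DMSO and 32.9, 31.01 and 40.3% in VE-822 in 92.1, and 22.1, 26.4 and 22.2% and then 42.3, 45.9 and 47.1% in MP38. Here the share rose without overlap in both lines. Of the 9 pairs, both genes were tested in 5 pairs in 92.1 and in 6 in MP38. H2AC8 and H2BC8, tested in MP38 only, were both called higher there, with log2 fold changes of 0.77 and 0.93. H2BC8 gave 62.0, 63.6 and 68.4% of that pair's counts in DMSO and 71.9, 65.35 and 64.8% in VE-822, so its share overlapped between treatments. In H2AC12 and H2BC12 the H2B gene held 96.97% or more of the counts in every library, and in H2AC13 and H2BC13 only the H2A gene was called in 92.1 and only the H2B gene in MP38. The H2BC13 call is lost under 4 of 14 other settings. Beyond the permutation test named above, the difference between partners of a pair had no test.

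**Figure D4:**
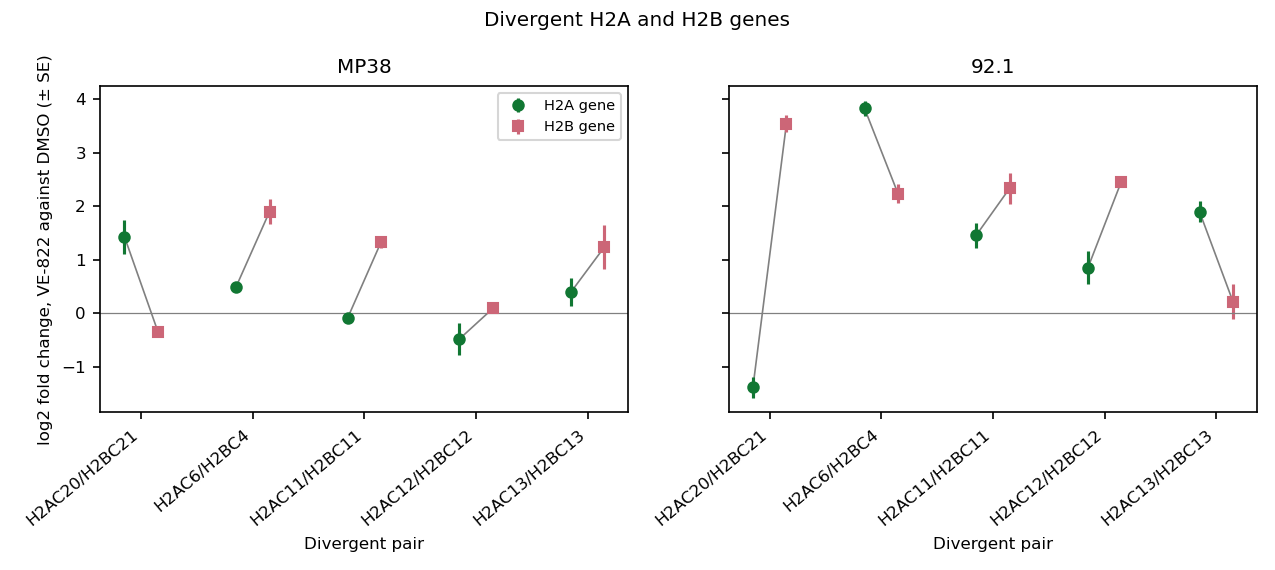
Log2 fold change (± SE) of the H2A gene (circle) and H2B gene (square) of the 5 head-to-head pairs tested in both lines. Partners of H2AC20/H2BC21 point in opposite directions in each line, and their directions swap between MP38 and 92.1.

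Members were also set apart by the ends of their gene models, a property the name rule did not use. In 92.1, 13 of the 20 members with a hexamer-ending transcript were tested and 7 were not. The 13 tested were called higher, but H2BC18 and H4C14 (2, 7 and 11 counts in DMSO) passed the filter through VE-822. Of the 11 at filter level in DMSO, 11 were higher, where 20.3% of all genes tested were. Summed over all 20 members with a hexamer-ending transcript, tested or not, levels went from 12.5, 13.1 and 20.6 CPM to 102, 102 and 119 CPM, a ratio of 7.01. Of 14 tested members without such a transcript, 10 were higher, 2 lower and 2 not called, or 7, 2 and 1 of the 10 at filter level in DMSO. Summed over all 39 listed members without such a transcript, levels went from 14.6, 14.99 and 15.4 CPM to 59.6, 57.7 and 72.4 CPM, a ratio of 4.21. This second set includes H2BC12 and H1-2. In MP38, 8 of 15 tested members with the hexamer were higher and 1 lower. The ratio of sums, again over all listed members with the hexamer, was 1.22. Without it 14 of 22 were higher and 0 lower, or 7 and 0 of the 14 at filter level in DMSO, against 26.9% and 25.4% of all genes. The ratio without the hexamer was 1.61 in MP38. It was 1.23 when H1-2 is left out of the sum and 2.14 when H2BC12 is left out. With the hexamer it was 1.15 in MP38 when H2AC6 is left out. In 92.1 the ratio without the hexamer was 4.15 when H1-2 is left out and 3.10 when H2BC12 is left out. With the hexamer it was 5.975 in 92.1 when H2AC6 is left out. The difference between these sets was not tested, and 29 of 61 models hold coding bases only, so a missing hexamer says nothing about the transcript itself.

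Members were split by the length of the deposited gene model as well. Most members with a hexamer-ending transcript also have at least 1000 bases of exon, so both splits hold largely the same genes. The values by length are therefore not a separate observation. In 92.1, 14 of the 21 members with at least 1000 bases of exon were tested, and these 14 were higher, H2BC18 and H4C14 among them. Of those at filter level in DMSO, 12 of 12 longer members were higher, against 6 higher, 2 lower and 1 not called of 9 shorter ones. Over all genes tested, 20.3% were higher. In MP38, 9 of 16 longer members at filter level in DMSO were higher and 1 lower, against 6 of 13 shorter members higher and 0 lower. H2AC20 and H4C3, with 494 and 405 bases, were among the short models, as was H2BC12 with 495.

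**Figure D5:**
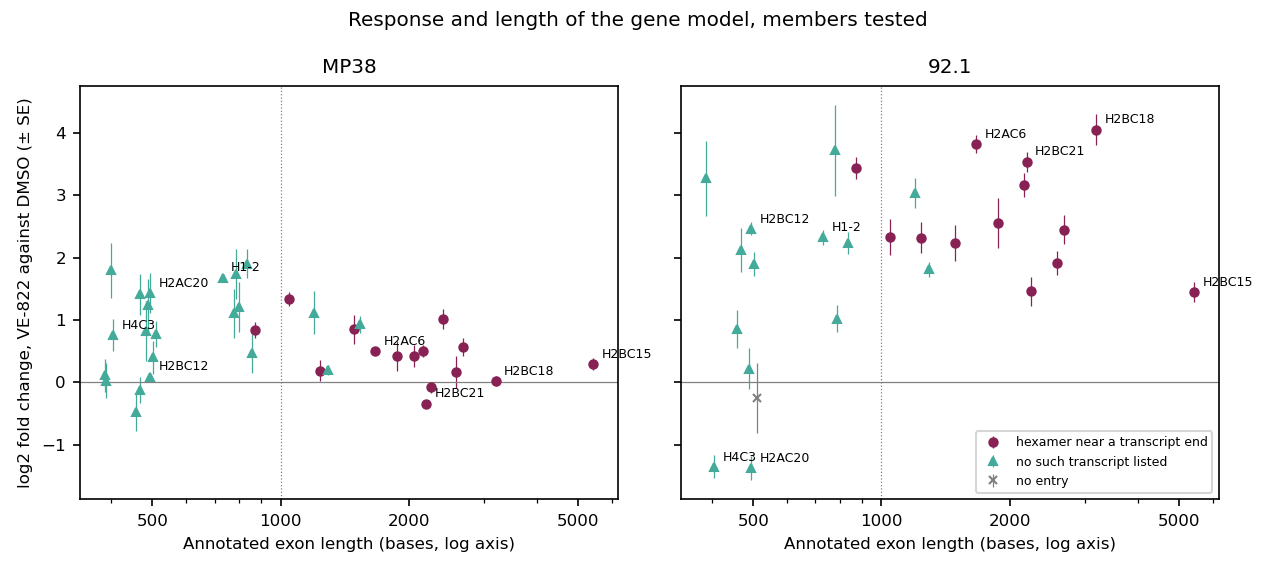
Log2 fold change (± SE) against annotated exon length (log axis; dotted line at 1000 bases) for tested members in MP38 and 92.1; circles have a GENCODE 29 transcript with AATAAA in its last 40 bases, triangles none, the cross no entry. In 92.1 the 14 longer members tested lie above 0, and both members called lower are short.

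Members below the filter were close to 0. In 92.1, 14 members had 0 counts in all 3 DMSO libraries, and in MP38 4 did. Of these in 92.1, H3C3 had 13, 4 and 4 counts in the VE-822 libraries, so that library 1 holds most of them, and H3C11 had 0, 7 and 5. Against a floor of 3 counts over the group, H1-6, a testis form of H1, with 4, 3 and 3 counts in VE-822, was at least 3.06-fold higher in 92.1. In MP38 H2AC4, with 11 counts, was at least 3.94-fold higher. None of these was tested, and these bounds cover counting error only. H3C14 and H3C15, whose 1656-base transcripts are identical, and H2AC18, whose 549-base transcript is contained in that of H2AC19, were among the members with 0 counts in 92.1 DMSO. Reads that fit such copies equally cannot be assigned to either.

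The genes that transcribe and process histone mRNA were mostly lower in 92.1. Of 29 such genes, 28 were tested in 92.1, with 2 higher and 20 lower (median log2 fold change -0.43), where 20.3% of all genes tested were higher and 19.6% lower. In MP38 27 were tested, with 12 higher and 10 lower (median 0.03), against 26.9% and 25.4% of all genes. NPAT, the activator of histone gene transcription, fell in 92.1 from 31.0 ± 0.958 to 20.7 ± 0.764 CPM (SD, n = 3) and rose in MP38 from 52.5 ± 2.17 to 72.6 ± 3.38 CPM. SLBP went from 81.8 ± 15.2 to 46.2 ± 2.93 CPM in 92.1 (log2 fold change -0.82 ± 0.125, adjusted p = 0.00102). In MP38 SLBP had 36.6 ± 1.74 and 36.2 ± 1.35 CPM (adjusted p = 0.791). LSM11, a protein of the U7 particle, had log2 fold changes of -0.83 ± 0.0689 in 92.1 and 0.36 ± 0.0591 in MP38, and CASP8AP2, a partner of NPAT, of -0.99 ± 0.0919 and -0.19 ± 0.0531.

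ERI1, the exonuclease that trims the histone mRNA end, fell from 62.5 ± 6.89 to 29.4 ± 1.699 CPM in 92.1 and rose from 18.2 ± 0.995 to 25.2 ± 1.01 CPM in MP38. Of 13 histone mRNA decay and translation genes tested in each line, 3 were higher and 4 lower in 92.1, shares near the 20.3% and 19.6% of all genes, and 7 higher and 1 lower in MP38, against 26.9% and 25.4%. Among 25 histone chaperones, 0 were higher and 20 lower in 92.1 (median -0.74), and 8 higher and 10 lower in MP38 (median 0.00). The same all-gene shares apply, and those of the chaperones lay well above that for lower genes in 92.1 and nearer to both in MP38. ASF1B, which hands new H3 and H4 to the replication fork, had a log2 fold change of -2.05 ± 0.115 in 92.1.

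Replication-independent histone variants, most of whose mRNAs are polyadenylated, were mostly lower in 92.1. Of 10 tested there, 1 was higher and 8 lower (median -0.59), against 8 higher and 0 lower of 12 in MP38 (median 0.49). Over all genes tested, 20.3% were higher and 19.6% lower in 92.1, and 26.9% and 25.4% in MP38. H2AZ1 fell in 92.1 from 644 ± 45.0 to 292 ± 10.9 CPM, a log2 fold change of -1.14 ± 0.0616. In MP38 it rose from 179 ± 4.38 to 461 ± 4.46 CPM. All 20 S phase reference genes were lower in 92.1 (median -1.75), against 19.6% of all genes. In MP38 8 of the 20 were higher and 8 lower (median 0.00), against 26.9% and 25.4%. These genes fell where the members rose in 92.1, and their part in the members' values was not tested.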

How the data were processed

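Poly(A)-selected RNA was sequenced in 12 libraries of 2 lines, 3 per line and treatment. Per the submitters' processing notes reads were handled with STAR 2.7.11a, featureCounts 2.0.6, cutadapt 4.8, MultiQC 1.7 and FastQC 0.12.1 on GRCh38.p13, with no settings given in the sources used here. The authors deposited raw counts per gene and FPKM values, 1 table of each per line, and every FPKM value matched the counts scaled for length and total within rounding.

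Counts were analysed in R 4.3.3 with edgeR 4.0.16 (filterByExpr with a minimum count of 10 and minimum total of 15, TMM, quasi-likelihood F test), in each line alone and jointly for the difference between lines. Benjamini-Hochberg adjustment covered every gene tested, and calls were made under 0.05. Standard errors come from the F statistic. CPM used TMM factors. The fits were tested on simulated data. DESeq2 1.42.0, limma 3.58.1 on log2(FPKM + 1) and log2(FPKM + 0.1), other filters and scalings, a replicate block and leaving out each library were alternatives.

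Members and gene lists were chosen with earlier results of these data known. Members were named by a rule: in each line the 2 highest of each class, the 5 largest and 5 smallest fold changes, and the 3 largest and smallest differences between lines, of which a part is left out. H1-5, H2AC13, H2BC11, H3C8, H4C5, H4C12, the identical copies and the members with 0 counts in DMSO fall outside it and were named after their values were seen. Motifs were searched in GENCODE 29 transcripts and RefSeq GRCh38.p14 promoters. A gene of 1 list is not reported here by name.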

Additional observations from a re-analysis of the deposited data

Results flagged for a closer look

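Over all 24958 genes in the joint edgeR fit, 22.1% had a higher response to VE-822 in 92.1 than in MP38 and 18.8% a lower one. By that test the response differed for 25 of the 41 members tested (92.1 minus MP38, log2 scale). Among linker histones these were H1-2 (0.67) and H1-3 (2.61). Among H2A genes they were H2AC6 (3.36), H2AC11 (1.57), H2AC12 (1.36), H2AC13 (1.53) and H2AC20 (-2.79). Among H2B genes they were H2BC5 (2.63), H2BC6 (1.77), H2BC7 (1.95), H2BC11 (1.02), H2BC12 (2.40), H2BC15 (1.19), H2BC18 (4.06) and H2BC21 (3.91). H3C6 (1.91), H3C10 (2.16), H3C12 (2.97) and H3C13 (2.27) were the H3 genes. H4C3 (-2.09), H4C5 (1.41), H4C8 (2.69), H4C9 (1.65), H4C12 (3.17) and H4C14 (2.16) were the H4 genes. The calls of H1-3, H2AC12 and H3C12 are lost under 6, 4 and 5 of the 17 other settings. H1-3, H2BC18, H3C12 and H4C12 had at most 7 counts in each DMSO library of 92.1.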

How the results depend on the processing

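Of 617 recomputed values for 41 results, 583 kept their direction and side of the threshold, 13 lost a call, 9 gained one and 12 changed sign. With only genes at a mean of at least 1 CPM over all libraries of a fit, fewer members were tested (18, 12 and 15). Of these, 11 were higher in MP38, 12 higher and 0 lower in 92.1, and 14 higher and 0 lower in the difference between lines. A gene can pass that cut through VE-822 alone. Leaving out 1 library gave 19 to 24 higher and 1 lower in MP38, 23 higher and 2 lower in 92.1, and 20 to 25 higher and 2 to 3 lower for the difference. Values near 0 that were never called changed sign: H2BC18 in MP38 (-0.0225 with library size only, -0.0231 with log2(FPKM + 0.1), -0.0156 with log2(FPKM + 1) on the same genes and -0.0156 with no filter, and -0.0239 to 0.0702 leaving out 1 library, with -0.0021 and -0.0204 without VE-822 replicates 1 and 2), H3C13 in MP38 (-0.3077 to 0.0629 leaving out 1 library, 0.0275 without VE-822 replicate 3), H2BC13 in 92.1 (-0.0215 to 0.4465 leaving out 1 library) and H3C2 in 92.1 (-0.9651 to 0.0963 leaving out 1 library, 0.0019 without DMSO replicate 3). The cause was not tested. Scaled by library size only, 92.1 had 5684 genes higher and 3534 lower over all genes, against 4658 and 4498.

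Same-numbered libraries deviated together with r of -0.067 to -0.011 in MP38, where none correlated best with its own number. In 92.1 r was 0.076 to 0.109, and each correlated best with its own number. The main fits did not take the numbers as pairs, though in 92.1 these correlations go with pairing. With the replicate block, 22 members were higher and 1 lower in MP38, 23 and 2 in 92.1, and 23 and 3 for the difference. Members under about 1 CPM rest on few counts, and poly(A) selection limits what any depth shows of stem-loop mRNA.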
